A study of Mus musculus with 16 samples.

Results

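Neurexins, neuroligins and SynCAMs are cell adhesion proteins that span the synaptic cleft. Of the 8 genes chosen (Nrxn2, Nrxn3, Nlgn1, Nlgn2, Nlgn3, Cadm1, Cadm2 and Cadm3), 7 had probe sets of their own. These were all probe sets to which the array annotation gives that gene as the single symbol, 146 of the 303629 probe sets with 1 symbol and of 625534 in all. The annotation used here lists none for Nrxn2, which is not analysed here. Nrxn3 had 34 probe sets, Nlgn1 had 23, Nlgn2 had 18, Nlgn3 had 15, Cadm1 had 18, Cadm2 had 16 and Cadm3 had 22.

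Neurexins sit mainly in the presynaptic membrane, and their long genes are spliced at several sites into very many forms. Neuroligins are their postsynaptic partners: neuroligin 1 is found mainly at excitatory synapses, neuroligin 2 at inhibitory synapses and neuroligin 3 at both. Which splice inserts a neurexin and a neuroligin carry alters how they bind each other and other ligands. SynCAMs, made from the Cadm genes, are immunoglobulin adhesion proteins that bind themselves and one another across the cleft. Nova1 and Nova2 are neuronal RNA-binding proteins that control alternative exons, many of them in transcripts of synaptic proteins.

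The study measured total RNA on Affymetrix mouse exon arrays, which carry a set of probes for each exon or part of an exon. CD1 mouse embryos at E18.5 made 4 groups of 4 arrays each: Nova1/2 double knockout (dKO) spinal cord, wild type (WT) spinal cord, dKO whole brain and WT whole brain, with 1 array per biological replicate. The sources used here do not say how the knockout alleles were made or whether embryos shared litters. WT and dKO embryos share the CD1 background, an outbred stock.

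Nova1 was low in every dKO array. Its gene level changed by -5.03 between dKO and WT brain and by -5.31 between dKO and WT spinal cord on the log2 scale, with adjusted p = 2.44e-13 and 8.94e-14 in limma. The change of Nova2 was -0.75 in brain (adjusted p = 0.00162) and -1.14 in spinal cord (adjusted p = 2.43e-06). Median intensities lay between 107.7 and 112 on dKO spinal cord arrays, 99.5 and 116 on WT spinal cord arrays, 76.5 and 78.8 on dKO brain arrays and 72.3 and 82.9 on WT brain arrays. All 12 Hox genes listed as spinal cord markers were higher in WT spinal cord than in WT brain, and all 7 telencephalon genes measured were lower. Telencephalon genes averaged 8.38 in dKO brain 3 and 7.44 in WT brain 3, against 9.45 to 9.65 in the other dKO brains and 9.48 to 9.68 in the other WT brains. Skeletal muscle genes averaged 9.51 and 8.95 in dKO spinal cords 2 and 4 and 9.97 and 9.35 in WT spinal cords 1 and 4, against 7.44 to 7.76 in the other 4 spinal cords and 6.98 to 7.17 in the brains. By Xist and Y-linked genes, dKO spinal cords were 3 female and 1 male, WT spinal cords 2 and 2, dKO brains 4 female and WT brains 2 and 2.

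The first question was whether loss of Nova changed how much of each adhesion gene was made. A gene level here is the median of log2(intensity + 16) over the gene's probe sets above a floor of 6.73. None of the 7 genes passed the test at adjusted p under 0.05 in brain, where 0.268% of all 14570 genes did, or in spinal cord, where 5.63% did. At an unadjusted p under 0.05 there were 2 of 7 in brain (background 5.33%) and 2 of 7 in spinal cord (background 19.5%). Over the 7 genes the median change in brain was -0.05, beside 0.02 for all genes. For spinal cord this median was -0.15, beside -0.03 for all genes. The change in spinal cord did not differ detectably from that in brain for any of the 7, none of them passing at an unadjusted p under 0.05 either, in a comparison with 0% of all genes called and 8% at an unadjusted p under 0.05.

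**Figure D1:**
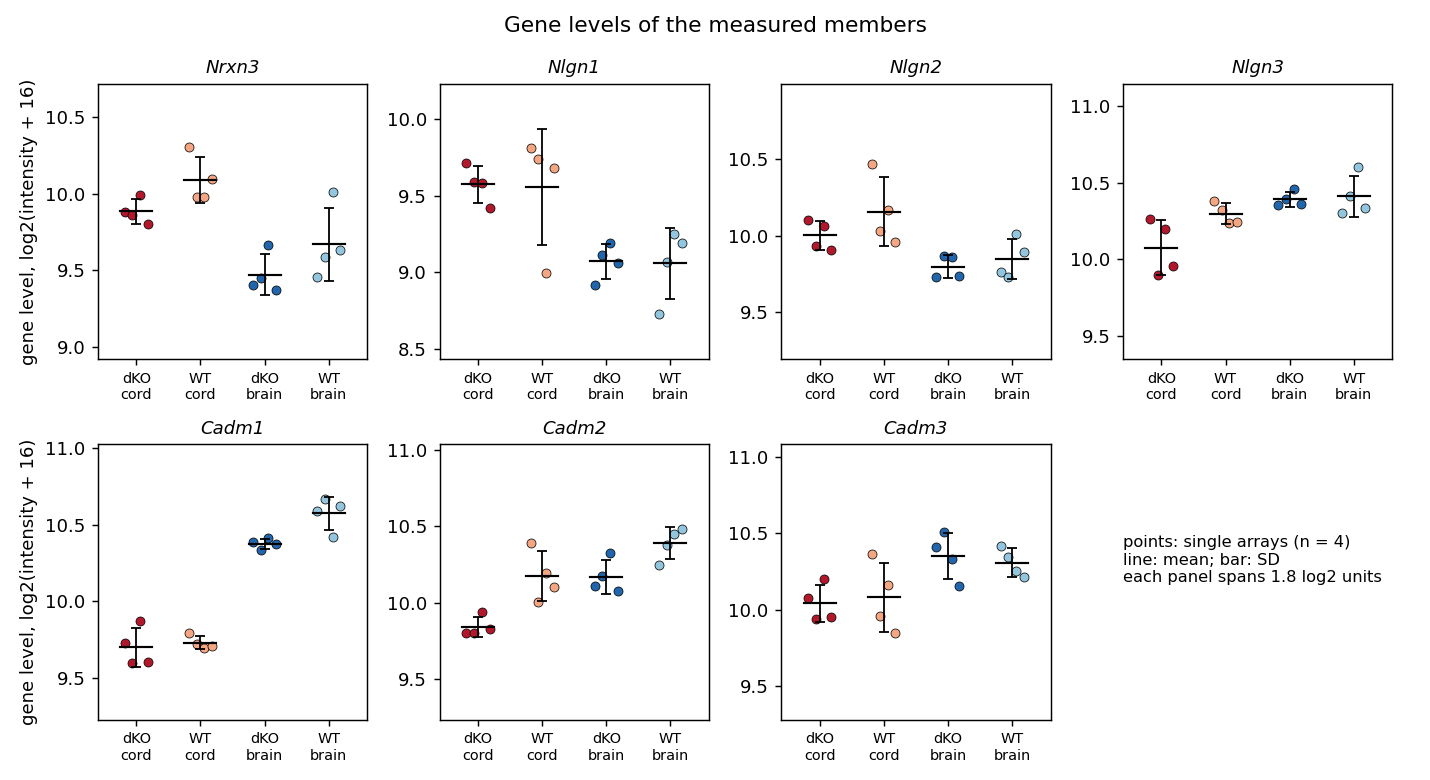
Gene levels of the 7 measured genes, as log2(intensity + 16), in dKO and WT spinal cord and in dKO and WT brain. Points are single arrays, lines are means and bars are SD (n = 4 per group); each panel spans the same number of log2 units. Cadm1 lies lower in all 8 spinal cords than in all 8 brains, and the 4 dKO spinal cords lie below the 4 WT spinal cords for Cadm2.

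Nrxn3, the one neurexin measured, had gene levels of 9.88, 9.86, 9.996 and 9.81 in dKO spinal cord, against 10.30, 9.98, 9.98 and 10.10 in WT spinal cord. In dKO brain its levels were 9.40, 9.45, 9.67 and 9.37, against 9.46, 9.58, 10.01 and 9.63 in WT brain. The dKO arrays thus lay on the low side of WT in both tissues, with overlap. The difference was -0.21 in spinal cord (95% interval -0.45 to 0.04) and -0.20 in brain (-0.44 to 0.04), and neither passed the test. Without the 4 muscle-rich spinal cords the spinal cord difference was -0.043, and without WT brain 3 the brain difference was -0.085. Over all alternatives the difference ran from -0.26 to -0.043 in spinal cord and from -0.30 to -0.085 in brain, and passed in none.

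No neuroligin gene level was called between dKO and WT in either tissue. Nlgn1 averaged 9.58 ± 0.12 in dKO and 9.56 ± 0.38 in WT spinal cord, and 9.07 ± 0.11 in dKO and 9.06 ± 0.23 in WT brain (SD, n = 4). The intervals for its change ran from -0.30 to 0.33 in both tissues. Nlgn2 averaged 10.0015 ± 0.096 in dKO and 10.16 ± 0.23 in WT spinal cord, and 9.80 ± 0.074 in dKO and 9.85 ± 0.13 in WT brain. Its change had an interval of -0.38 to 0.07 in spinal cord and -0.28 to 0.18 in brain. Nlgn3 averaged 10.08 ± 0.18 in dKO and 10.30 ± 0.069 in WT spinal cord, a difference of -0.22 with an unadjusted p of 0.0381 and an adjusted p of 0.22 in limma. Without the 4 muscle-rich spinal cords the spinal cord differences of Nlgn1, Nlgn2 and Nlgn3 were 0.28, -0.0145 and -0.053, none of which passed. In brain Nlgn3 averaged 10.39 ± 0.049 in dKO and 10.41 ± 0.13 in WT.

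Among the SynCAM genes, Cadm2 came closest to the threshold. Its levels were 9.80, 9.80, 9.94 and 9.83 in dKO spinal cord, against 10.39, 10.01, 10.19 and 10.10 in WT spinal cord. Every dKO spinal cord was below every WT spinal cord, a separation that 11.5% of all genes showed in one direction or the other. The difference was -0.33 (SE 0.097), or 1.26-fold lower, with an adjusted p of 0.0516 in limma. Across the alternative settings that p ran from 0.0265 to 0.504: it was 0.0394 with an offset of 64, 0.0265 with quantile normalization, 0.0491 with the replicate number as a block, 0.0367 without WT spinal cord 2, 0.0422 without WT spinal cord 4 and 0.504 without the 4 spinal cords rich in muscle genes. In dKO brain Cadm2 stood at 10.11, 10.17, 10.32 and 10.08, against 10.25, 10.38, 10.45 and 10.48 in WT brain, a difference of -0.22 with an unadjusted p of 0.0369 and an adjusted p of 0.896.

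Markers of cell types were also compared between dKO and WT spinal cord. Of the genes measured, 5 of 9 astrocyte, 3 of 8 oligodendrocyte and 5 of 10 microglia genes were lower in dKO than in WT spinal cord, against 4.55% of all genes called lower, and of the 10 pan-neuronal genes 1 was higher (Dcx) and 1 lower (Eno2). Summed log2 levels of the astrocyte list were 84.8 to 87.2 in dKO and 87.1 to 91.5 in WT spinal cord, and those of the microglia list were 74 to 77.1 in dKO and 78.1 to 83.9 in WT. For the oligodendrocyte list they were 65.8 to 66.8 in dKO and 67.9 to 70.4 in WT, and none of the genes of these 3 lists averaged below the floor. In RNA from whole tissue, fewer cells of a type and less RNA per cell cannot be told apart. The part of these cells in the Cadm2 and Nlgn3 values, neither of them called, was not tested. The marker calls are those of the main fit, with 820 of all genes called in spinal cord. They are not given for the fit without the muscle-rich spinal cords, in which 100 of all genes were called.

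Cadm1 and Cadm3 complete the group. Cadm1 had levels of 10.39, 10.33, 10.41 and 10.38 in dKO brain, against 10.59, 10.67, 10.42 and 10.62 in WT brain. The dKO brains all lay below the WT brains, as the 2 groups did in one direction or the other for 4% of all genes, but WT brain 3 was close to them. The difference of -0.20 had an unadjusted p of 0.037 and an adjusted p of 0.896, and it was -0.026 with means over probe sets in place of medians. In spinal cord Cadm1 averaged 9.70 ± 0.13 in dKO and 9.73 ± 0.043 in WT. Cadm3 averaged 10.04 ± 0.12 in dKO and 10.08 ± 0.23 in WT spinal cord, and 10.35 ± 0.15 in dKO and 10.31 ± 0.093 in WT brain.

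The second question was whether single exons of these genes changed relative to the rest of their gene. The exon index of a probe set is its log2 value minus its gene's level on the same array, so it falls when an exon is left out of more of the transcripts; a changed transcript start or end, or a sequence difference under the probes, can alter it too. Probe sets are given by their array number, since their place in the gene was not used here. Of the 146 probe sets, 141 averaged above the floor and were tested, namely 34 of Nrxn3, 22 of Nlgn1, 17 of Nlgn2, 15 of Nlgn3, 16 of Cadm1, 16 of Cadm2 and 21 of Cadm3. The floor used the mean over all 16 arrays, so a probe set could pass through the group in which it was bright.

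In brain 4 of the 141 exon indices differed between dKO and WT, where 0.15% of all 193126 probe sets did. In spinal cord 4 of the 141 differed, where 0.388% of all probe sets did. Nrxn3, Nlgn1 and Cadm1, 3 of the 7 genes, held a called probe set in brain, against 1.3% of the 12340 genes with exon indices. Nrxn3 and Nlgn1, 2 of the 7, held one in spinal cord, against 4.28% of those genes. The 7 genes were chosen with earlier results of these data known, so these counts beside the shares are a description. The shares of genes were not matched for the number of probe sets per gene. The same 3 probe sets of Nrxn3 and Nlgn1 fell in both tissues, whereas 0.0953% of all probe sets were called in both with the same sign. No probe set of Nlgn2, Nlgn3, Cadm2 or Cadm3 was called in either tissue. At an unadjusted p under 0.05 in limma 1 probe set each of Nlgn2 and Cadm3 passed in brain, and 1 of Nlgn2, 2 of Nlgn3, 1 of Cadm2 and 3 of Cadm3 passed in spinal cord. Over all 7 genes 12 of the 141 passed that level in brain, against 3.3% of all probe sets, and 25 in spinal cord, against 11.8%.

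**Figure D2:**
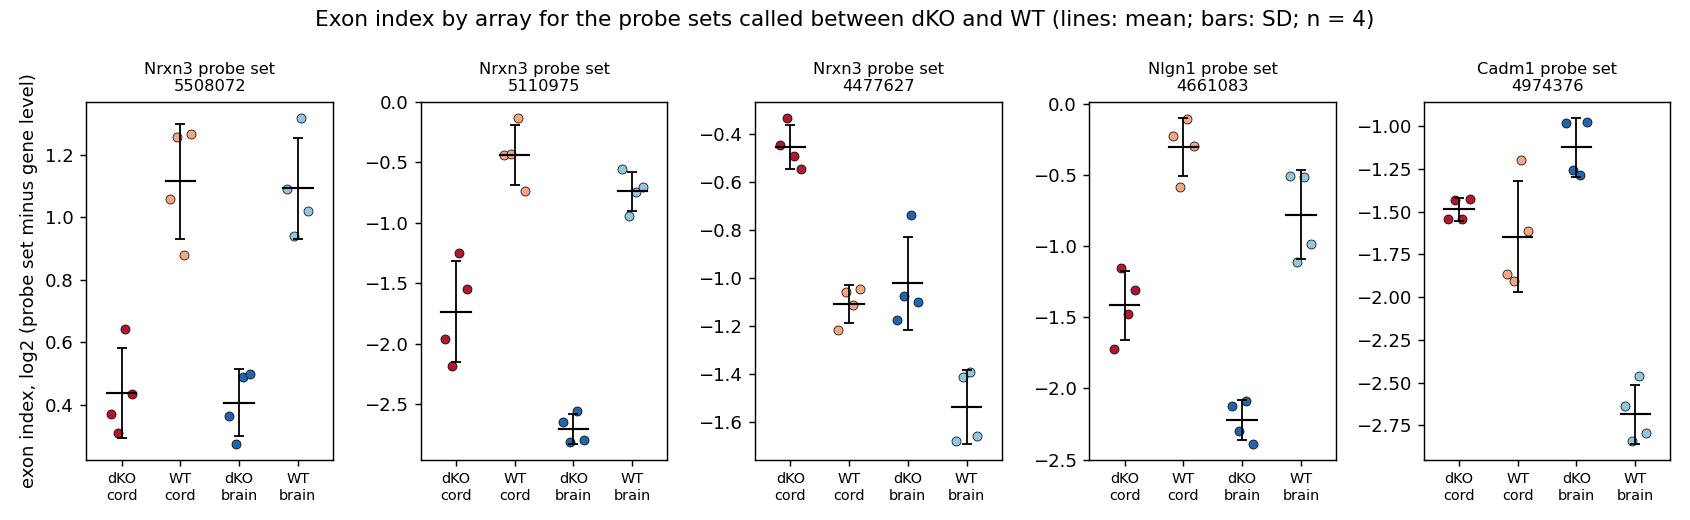
Exon index by array for the 5 probe sets called between dKO and WT in at least 1 tissue, as the log2 value of the probe set minus the level of its gene. Points are arrays, lines are means and bars are SD (n = 4), and the vertical axes differ between panels. The dKO arrays of Nrxn3 probe sets 5110975 and 5508072 and of Nlgn1 probe set 4661083 lie below the WT arrays in both tissues, and for Cadm1 probe set 4974376 the WT brains stand below the other 3 groups.

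The largest fall was in Nrxn3. Probe set 5110975 had intensities of 92, 83.5, 122 and 79.2 in dKO brain, against 462, 382, 602 and 470 in WT brain. In dKO spinal cord it read 227, 188, 413 and 291, against 915, 731, 906 and 642 in WT spinal cord. All dKO arrays were below all WT arrays in each tissue. The probe set was dim in dKO brain, near the floor of 6.73 on the log2 scale, which limits the fold given there. Its exon index was -2.70 ± 0.12 in dKO and -0.74 ± 0.16 in WT brain, a change of -1.97 (SE 0.17, adjusted p = 2.21e-05 in limma), or 3.91-fold lower. In spinal cord it was -1.73 ± 0.42 in dKO and -0.44 ± 0.25 in WT, a change of -1.30 (SE 0.17, adjusted p = 0.00232), or 2.46-fold lower. The spinal cord change was the smaller by 0.67 (95% interval 0.15 to 1.19), which did not pass over all probe sets (adjusted p = 0.835).

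A brighter Nrxn3 probe set, 5508072, fell by less and by nearly the same amount in both tissues. Its intensities were 855, 829, 1126 and 918 in dKO brain, against 1482, 1457, 2558 and 1593 in WT brain. In dKO spinal cord they were 1201, 1133, 1576 and 1192, against 2618, 2397, 1843 and 2626 in WT spinal cord. The index changed by -0.69 in brain (SE 0.11, adjusted p = 0.0138 in limma) and by -0.68 in spinal cord (SE 0.11, adjusted p = 0.0123), with a difference between tissues of 0.01 (95% interval -0.33 to 0.34). This call is the least firm of those in brain: over the alternatives its adjusted p ran from 0.00568 to 0.128, the highest with the replicate number as a block, and it was 0.116 without both brains numbered 3.

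Probe set 4477627 of Nrxn3 went the other way. It had intensities of 676, 720, 709 and 596 in dKO spinal cord, against 528, 469, 451 and 516 in WT spinal cord, while the level of the gene as a whole was on the low side in dKO. Its exon index rose by 0.65 (SE 0.10, adjusted p = 0.00976). In brain the readings were 284, 316, 471 and 292 in dKO and 204, 272, 377 and 235 in WT, an index change of 0.51 with an adjusted p of 0.0832. The dKO and WT indices did not overlap in either tissue, and the change in spinal cord minus that in brain was 0.14 (95% interval -0.17 to 0.45).

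The other 31 probe sets of Nrxn3 showed no call. Their index changes lay between -0.84 and 0.67 over both tissues. Probe set 5405625 stood at 257, 230, 262 and 220 in dKO brain, against 445, 415, 727 and 519 in WT brain, an index change of -0.84 with an adjusted p of 0.641. In spinal cord it was 346, 318, 487 and 355 in dKO and 1089, 289, 814 and 738 in WT, where the second WT array lay below all dKO arrays. Probe set 5054059 had an index change of 0.67 in spinal cord with an adjusted p of 0.0622, and of 0.19 in brain.

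In Nlgn1, the neuroligin of excitatory synapses, 1 of 22 probe sets changed, and it fell in both tissues. Probe set 4661083 had intensities of 95.3, 96.8, 121 and 86.2 in dKO brain, against 283, 233, 411 and 280 in WT brain. In dKO spinal cord it read 239, 330, 259 and 261, against 751, 556, 459 and 655 in WT spinal cord. The groups did not overlap in either tissue. The probe set was dim in dKO brain, near the floor of 6.73 on the log2 scale, which limits the fold given there. The index was -2.22 ± 0.14 in dKO and -0.78 ± 0.32 in WT brain, a change of -1.45 (SE 0.16, adjusted p = 0.000208 in limma), or 2.72-fold lower. In spinal cord it was -1.41 ± 0.24 in dKO and -0.30 ± 0.20 in WT, a change of -1.11 (SE 0.16, adjusted p = 0.00366), or 2.16-fold lower. The gene level of Nlgn1 differed by 0.01 in brain and 0.02 in spinal cord, so the fall lay in the intensity of the probe set itself.

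The called probe set of Cadm1 rose, and it was called in brain but not in spinal cord. Probe set 4974376 had intensities of 663, 525, 543 and 662 in dKO brain, against 232, 211, 233 and 211 in WT brain. The 8 readings fell into groups far apart. In spinal cord they overlapped, with 274, 271, 306 and 273 in dKO and 228, 210, 345 and 256 in WT. The index rose by 1.56 in brain (SE 0.14, adjusted p = 2.77e-05 in limma), or 2.95-fold, and the spinal cord change was 0.16 (95% interval -0.14 to 0.46, adjusted p = 0.702).

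The difference between the tissues for Cadm1 probe set 4974376, spinal cord change minus brain change, was -1.40 (95% interval -1.82 to -0.98), with an unadjusted p of 2.79e-06. Adjusted over all probe sets it was 0.108 in limma, and it ran from 0.0573 to 0.455 over the alternatives, so the difference did not pass the threshold, at which 0.000518% of all probe sets were called. Of the 141 probe sets 9 had an unadjusted p under 0.05 for this difference, against 5.67% of all probe sets, and this one had the lowest. No other Cadm1 probe set was called. Probe set 4762973 was higher in dKO in each tissue with no overlap of the groups, with index changes of 0.79 in brain and 0.96 in spinal cord, but WT spinal cord 1 read 138 where the other WT spinal cords read 901, 681 and 746, and neither change passed (adjusted p of 1 and 0.377).

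The other 4 genes gave narrow ranges of change in brain. Cadm2 exon indices differed by -0.11 to 0.26 between dKO and WT brain, those of Nlgn2 by -0.09 to 0.26 and those of Nlgn3 by -0.17 to 0.36. Cadm3 ranged from -0.76 to 0.07, its lowest probe set being 5352819. That probe set was dim, at 58.6, 52.3, 71.9 and 92.7 in dKO brain and 121, 95.8, 146 and 125 in WT brain, and its adjusted p was 0.953. In spinal cord the ranges were -0.18 to 0.32 for Cadm2, -0.14 to 0.40 for Nlgn2, -0.19 to 0.79 for Nlgn3 and -0.68 to 0.72 for Cadm3. The highest of Nlgn3, probe set 5494695, read 347, 346, 552 and 407 in dKO and 263, 306, 186 and 339 in WT spinal cord, an index change of 0.79 with an adjusted p of 0.0783 and no overlap of the indices.

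Exon indices of the 2 genotypes did not overlap for 15 of the 141 probe sets in brain, against 2.63% of all probe sets, and for 19 in spinal cord, against 5.69%. Cadm1 held 5 of the 15 and Nrxn3 held 6. The brain and spinal cord comparisons share no array. The 2 changes had the same sign for 100 of the 141 probe sets (70.9%), against 53% of all probe sets. Across the 141 probe sets Pearson's r between them was 0.66 and Spearman's rho 0.44, as a description, since probe sets of a gene share its level. Over the 136 probe sets called in neither tissue, r was 0.53 and 95 had the same sign.

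**Figure D3:**
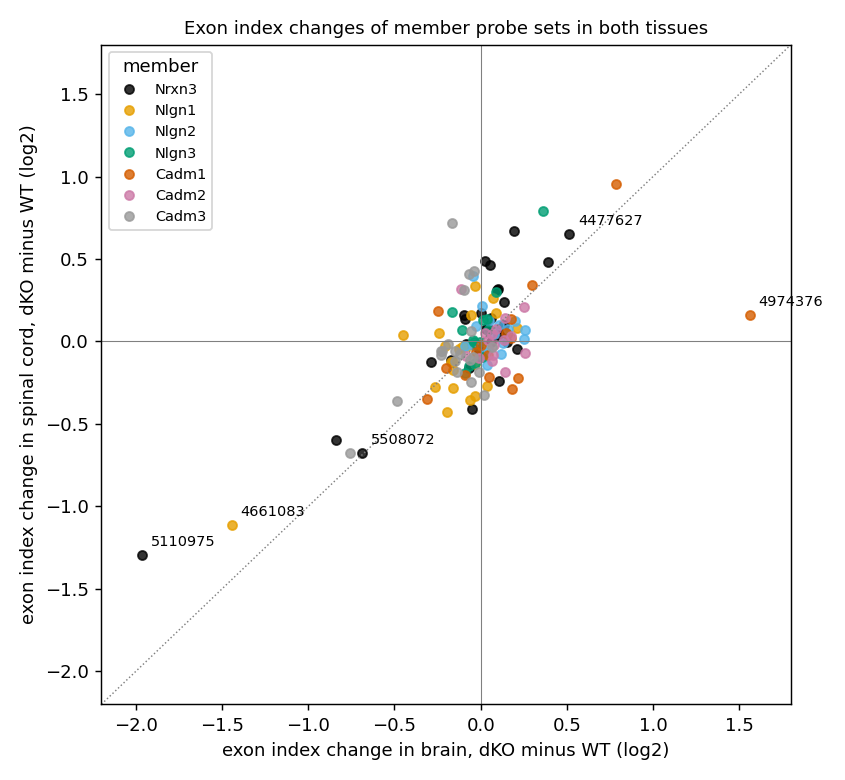
Change of the exon index of each of the 141 probe sets in brain (horizontal axis) and in spinal cord (vertical axis), both dKO minus WT in log2 units, coloured by gene. The dotted line marks equal change; numbers mark the called probe sets, of which 5110975, 4661083 and 5508072 lie at the lower left and 4974376 lies at the right near 0 in spinal cord.

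The spinal cord calls rest on the 8 arrays of that tissue together with the spread in brain. In a limma fit of those 8 arrays alone, Nrxn3 probe sets 5110975 and 5508072 did not pass (adjusted p = 0.0829 and 0.122). Probe sets 4477627 and 4661083 still passed in that fit. Without dKO spinal cords 2 and 4 and WT spinal cords 1 and 4, which were rich in muscle genes, 0 of the 141 exon indices were called in spinal cord, against 0.0575% of all probe sets; the 2 arrays left in each group gave index changes of -1.32 for Nrxn3 probe set 5110975 (adjusted p = 0.0622), -0.56 for 5508072 (adjusted p = 0.302) and 0.62 for 4477627 (adjusted p = 0.241). Nlgn1 probe set 4661083 then changed by -1.25 (adjusted p = 0.0951). Over all alternatives the adjusted p in spinal cord ran from 0.000755 to 0.0829 for 5110975, from 0.003 to 0.302 for 5508072, from 0.00277 to 0.241 for 4477627 and from 0.000576 to 0.0951 for 4661083, and the direction of each was kept. The brain calls of 5110975, 4661083 and 4974376 held in every alternative that measured them (4661083 lies under the floor at the 75th percentile), with index changes of -2.13 to -1.58, -1.58 to -1.15 and 1.39 to 1.69.

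The last comparison set the tissues of WT embryos side by side. Of the 7 genes, 4 differed in level between WT spinal cord and WT brain, and so did 60.4% of all genes. Cadm1 was lower in spinal cord, at 9.79, 9.72, 9.70 and 9.71, against 10.59, 10.67, 10.42 and 10.62 in WT brain. The groups were far apart, with a difference of -0.85 (SE 0.088, adjusted p = 9.35e-07 in limma), or 1.8-fold lower. Over the alternatives the difference ran from -0.90 to -0.58 and passed in each. The median of all genes was -0.16 in the same comparison, and relative to it Cadm1 differed by -0.69.

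Nrxn3, Nlgn1 and Nlgn2 were higher in WT spinal cord than in WT brain. Nrxn3 was higher by 0.42 (SE 0.12, adjusted p = 0.00452), though WT brain 3 at 10.01 reached into the range of the spinal cords. Nlgn1 read 9.81, 9.74, 8.999 and 9.68 in WT spinal cord, against 8.73, 9.07, 9.25 and 9.19 in WT brain, a difference of 0.50 (SE 0.15, adjusted p = 0.00821) in which WT spinal cord 3 lay among the brains. Nlgn2 was higher by 0.31 (SE 0.11, adjusted p = 0.0195), with overlap, as WT spinal cord 4 at 9.96 lay below WT brain 3 at 10.01. It lost the call in 3 of 8 fits with 1 array left out. Without the 4 muscle-rich spinal cords these 3 differences were 0.31, 0.31 and 0.25 with adjusted p of 0.083, 0.171 and 0.0711, and over all alternatives their adjusted p reached 0.083, 0.171 and 0.192.

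Nlgn3, Cadm2 and Cadm3 differed by -0.12, -0.22 and -0.23 between WT spinal cord and WT brain and did not pass, with adjusted p of 0.312, 0.0622 and 0.0916; with quantile normalization their signs turned, to 0.12, 0.02 and 0.01. Cadm2 was called lower in 5 alternatives: its adjusted p was 0.0499 with an offset of 64, 0.00961 with the floor at the 75th percentile, 0.0482 without the muscle-rich spinal cords, 0.0122 without WT spinal cord 1 and 0.0419 without WT brain 1. Cadm3 was called lower in 2, with 0.0356 at that floor and 0.0162 without WT spinal cord 1. Over all alternatives the adjusted p ran from 0.00961 to 0.935 for Cadm2 and from 0.0162 to 0.943 for Cadm3. Across all 4 groups, the order of levels for Cadm1 was WT brain, dKO brain, WT spinal cord and dKO spinal cord, of which the last pair overlapped and the first pair did not, without passing the test. For Cadm2, dKO spinal cord was lowest, apart from the other 3 groups. For Nrxn3, Nlgn1 and Nlgn2 both spinal cord groups averaged above both brain groups, and the 2 genotypes within a tissue overlapped.

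Exon indices differed between the tissues too. The index subtracts the gene level, which itself differed between the tissues for Cadm1, Nrxn3, Nlgn1 and Nlgn2. An index can therefore differ where the intensity of the probe set itself does not. Of the 141 exon indices, 32 differed between WT spinal cord and WT brain (22.7%), close to the 22% of all probe sets called; 17 of them were higher, against 12.4% of all probe sets, and 15 lower, against 9.59%. Each of the 7 genes held at least 1, as did 88% of genes with exon indices. The count was 8 of 34 for Nrxn3, 7 of 22 for Nlgn1, 4 of 17 for Nlgn2, 1 of 15 for Nlgn3, 5 of 16 for Cadm1, 5 of 16 for Cadm2 and 2 of 21 for Cadm3.

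**Figure D4:**
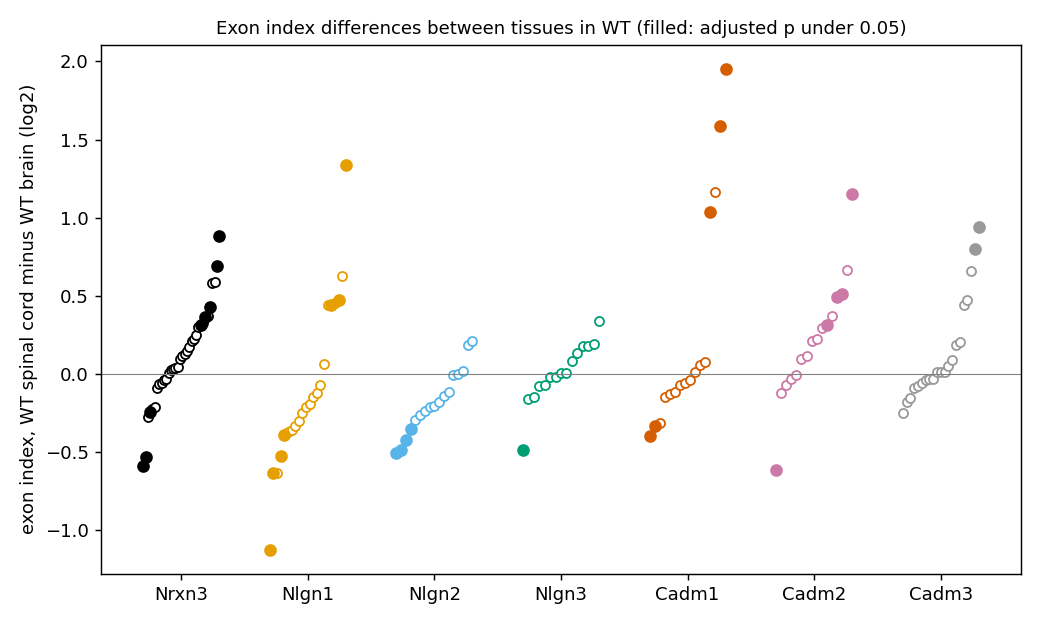
Difference in exon index between WT spinal cord and WT brain (log2) for the 141 probe sets, ordered within each gene; filled points passed at adjusted p under 0.05. The largest positive differences are in Cadm1, Nlgn1 and Cadm2, and the called probe sets of Nlgn2 all lie below 0.

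Cadm1 held the largest tissue differences in exon index. The level of the gene differed by -0.85 between the same groups, which enters each of them. Cadm1 probe set 5225488 read 301, 216, 162 and 385 in WT spinal cord, against 107, 76.1, 179 and 93.6 in WT brain, an index difference of 1.95 (SE 0.26, adjusted p = 0.000177 in limma). It was dim in WT brain, and its own intensities overlapped between the tissues. Probe set 5046090 read 302, 171, 224 and 226 in WT spinal cord, against 123, 130, 140 and 126 in WT brain, an index difference of 1.58 (SE 0.14, adjusted p = 9.45e-06). The probe set that rose in dKO brain, 4974376, had an index higher by 1.04 in WT spinal cord than in WT brain (adjusted p = 0.000177). Its own intensity barely differed between the tissues, at 228, 210, 345 and 256 in WT spinal cord and 232, 211, 233 and 211 in WT brain, and it was the level of Cadm1 that was lower in spinal cord. In dKO embryos 4974376 was brighter in all 4 dKO brains than in all 4 dKO spinal cords.

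For Nlgn1 the index of probe set 4543123 was higher in WT spinal cord by 1.34 (SE 0.21, adjusted p = 0.000538), with intensities of 626, 487, 451 and 572, against 89.3, 150, 243 and 105 in WT brain. Its probe sets 5220191 and 4802477 were lower, by -1.12 (adjusted p = 0.00372) and -0.63 (adjusted p = 0.00833), and both overlapped through WT spinal cord 3, where the level of the gene was low. Without the 4 muscle-rich spinal cords their adjusted p was 0.056 and 0.121, and it reached no higher in any alternative. The probe set that fell in dKO, 4661083, had an index higher by 0.47 in WT spinal cord than in WT brain (adjusted p = 0.0398).

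In Nrxn3 the named differences were 0.88 for probe set 5054059, -0.59 for 5208452 and -0.53 for 4900563, with adjusted p of 0.000749, 0.00129 and 0.00413. Probe set 5054059 read 296, 232, 234 and 387 in WT spinal cord, against 83.2, 97, 144 and 101 in WT brain. The dKO-responsive probe set 4477627 was higher in WT spinal cord by 0.43 (adjusted p = 0.00885), whereas 5110975 differed by 0.30 and 5508072 by 0.02, without passing (adjusted p of 0.229 and 0.907).

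Cadm2 probe set 4744860 read 905, 889, 1073 and 1080 in WT spinal cord, against 375, 483, 622 and 580 in WT brain, an index difference of 1.15 (SE 0.13, adjusted p = 3.97e-05). Its probe sets 5468369 and 4571846 differed by 0.51 and -0.61 (adjusted p of 0.00388 and 0.00502). The 3 named probe sets of Nlgn2, the neuroligin of inhibitory synapses, were all lower in WT spinal cord: 4596156 by -0.49, 5099294 by -0.42 and 4482033 by -0.51, with adjusted p of 0.00153, 0.00212 and 0.0106. Their own intensities overlapped between the tissues, and the level of Nlgn2 was the higher in spinal cord. Nlgn3 had 1 called probe set, 5291033, at -0.49 (adjusted p = 0.0151), an index held at 0 on 6 of the 16 arrays, where the probe set was itself the median of the gene; its adjusted p with the 8 WT arrays alone was 0.0808, the highest of the alternatives. In Cadm3 probe sets 4557423 and 4753360 were higher by 0.94 and 0.80 (adjusted p of 0.0132 and 0.0203), and over the alternatives their adjusted p reached 0.17 and 0.101.

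Around these adhesion genes, 69 partner genes were listed, of which 61 had a gene level. In brain none of the 61 was called between dKO and WT, beside 0.268% of all genes. In spinal cord 5 were lower and none higher, against 4.55% of all genes called lower: Lin7b, a PDZ adaptor in a complex with Cask, by -1.06 (adjusted p = 6.66e-05); Clstn3, a calsyntenin that binds neurexins, by -0.66 (adjusted p = 0.00214); Epb4.1l3, a protein that links Cadm1 to the cytoskeleton, by -0.59 (adjusted p = 0.00426); Grid1, a delta receptor linked to neurexins through cerebellins, by -0.42 (adjusted p = 0.036); and Epb4.1l1 by -0.34 (adjusted p = 0.0434). Without the 4 muscle-rich spinal cords with 2 arrays left in each group, only Lin7b of the 5 passed, at -0.96. Clstn3 then differed by -0.69 (adjusted p = 0.0898), Epb4.1l3 by -0.49 (0.188), Epb4.1l1 by -0.34 (0.178) and Grid1 by -0.17 (0.661), each adjusted p being the highest among its alternatives. Grid1 missed the threshold in 9 and Epb4.1l1 in 12 of 18 alternatives. In Lin7b, the exon indices of probe sets 4418198 and 5547298 rose in spinal cord by 1.05 and 0.57 (adjusted p = 0.0178 and 0.0219 in limma). The fall of Lin7b was thus not even over its probe sets.

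By list, 2 of 19 neurexin ligands and partners outside the cell, 3 of 11 presynaptic partners in the cytoplasm, 0 of 10 neuroligin partners at the postsynapse, 0 of 3 STAR splicing regulators and 0 of 18 other adhesion genes that organise synapses passed in spinal cord. The median change of the presynaptic list was -0.34 in spinal cord and -0.05 in brain, beside -0.03 and 0.02 for all genes. Exon indices of the partner genes were called for 11 of 1341 probe sets (0.82%) in brain, against 0.15% of all probe sets, and 14 (1.04%) in spinal cord, against 0.388%. The partner lists, too, were chosen with earlier results of these data known, so these shares are a description. The lowest unadjusted p in brain were those of probe sets of Ptprf, a receptor phosphatase that organises synapses, with a change of -3.24 in brain and -2.57 in spinal cord, of Gphn, the gephyrin scaffold of inhibitory synapses, with 2.76 and 2.24, and of Cask, a scaffold that binds neurexins and SynCAMs, with -1.18 and -0.67. These 3 were singled out after their values were seen.

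Between WT spinal cord and WT brain, 9 partner genes were higher and 16 lower, against 20.6% and 39.8% of all genes. Of the 19 neurexin ligands and partners outside the cell 3 were higher and 5 lower, and the 4 with the lowest adjusted p were all lower: Lrrtm2 differed by -0.90, Nxph3 by -0.88, Lrrtm1 by -0.51 and Cbln1 by -0.49. Of the STAR proteins, RNA-binding regulators of neurexin splicing, Khdrbs3 differed by -1.26 and Khdrbs1 by -0.72. Over the alternatives these ran from -1.50 to -0.82 and from -0.88 to -0.50, and both passed in each. The STAR list averaged 9.59 in WT brain 3, against 10.07 to 10.23 in the other WT brains and 9.10 to 9.54 in WT spinal cord. Presynaptic Epb4.1l3 was higher by 0.76, while Cask differed by -0.46 and Lin7c by -0.32. At the postsynapse Mdga1, which binds neuroligins, differed by -0.52 and Dlg4 by -0.41, and Dlgap1 and Shank2 by 0.50 and 0.41. The other adhesion genes named were Flrt2 at -0.86, Flrt3 at -0.70, Odz2 at -0.50 and Lrrc4b at -0.37. With quantile normalization Cbln1, Lin7c, Lrrc4b and Dlg4 no longer passed. When the floor was set at the 75th percentile Shank2 differed by 0.073 (adjusted p = 0.521), and Flrt3 by -0.25 (adjusted p = 0.147) with no floor. Without the muscle-rich spinal cords Shank2 and Dlg4 missed the threshold, with adjusted p of 0.0526 and 0.0553.

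Genes whose level ran most like that of each adhesion gene over the 16 arrays were found by Pearson's r, as a description, since the arrays share their tissue and scaling. They were Syne1 and Pcdh15 for Nrxn3 (r = 0.97 each), Kcnc2 and Treml4 for Nlgn1 (0.92 and 0.91), Kif26b and Csmd2 for Nlgn2 (0.93 each) and Xk and 8430427H17Rik for Nlgn3 (0.91 each). Tbc1d16 and Epha5 ran most like Cadm1 (0.98 each), Gprasp2 and Atrn most like Cadm2 (0.94 and 0.93), and Taf12 and 2310003C23Rik most like Cadm3 (0.94 and 0.93). After removing group means the r of Tbc1d16 and Epha5 with Cadm1 was 0.54 and 0.58, so much of that likeness lay in the difference between tissues, while for Nrxn3 it was 0.93 and 0.95. Among the 7 genes themselves, Nrxn3 ran with Nlgn2 at 0.87 over the 16 arrays and 0.71 within groups, and with Cadm1 at -0.70 over the arrays and -0.07 within groups.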

How the data were processed

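Total RNA of 16 samples was measured on Affymetrix mouse exon arrays; samples were grouped by their titles. Each probe set has 1 deposited intensity on a linear scale. The submitters' processing notes name Affymetrix Power Tools, PLIER and build mm8, without versions or settings. The number of arrays limits the precision. Values were taken as log2(intensity + 16), which understates changes of dim probe sets. Probe sets averaging above the median of all (6.73) were kept. Gene levels (medians over at least 3 probe sets) and exon indices (genes with at least 5) were modelled by limma (3.58.1; lmFit, eBayes) as means of the 4 groups, run in R (4.3.3) with the package data.table (1.17.8), with Benjamini-Hochberg adjustment over all 14570 genes or 193126 probe sets. A feature is called where the adjusted p is under 0.05, two-sided. All p-values measure the spread between these arrays, whose litters are not stated.

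The genes and the partner and marker lists were chosen with earlier results of these data known. Named were all genes of the family, every probe set called between genotypes, up to 3 per gene called between tissues, up to 4 called genes per partner list and the 2 genes most correlated with each. Other probe sets named were singled out after their values were seen. The fit was tested on simulated data. Alternatives changed the offset, the floor, the summary over probe sets, the scaling between arrays, the arrays in the fit, and added sex or the replicate number. In brain the same-numbered dKO and WT arrays deviated together, with correlations of 0.21 to 0.41, against -0.38 to 0.20 for differently numbered ones. The numbers may thus pair them, but the labels state no pairing, and the main fit is unpaired. The blocked value is given where it changes a call. In spinal cord the correlations of same-numbered arrays were -0.12 to -0.003. Positions and sequences of the probe sets were not used here.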

Additional observations from a re-analysis of the deposited data

Results flagged for a closer look

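Among 82 groups of 4 arrays examined, 5 held an array whose gap to the nearest other exceeded the 95% critical share of the range of its group in Dixon's test; about 1 in 20 groups does so by chance. WT spinal cord 3 had a Nlgn1 gene level of 8.999, where the others had 9.68 to 9.81. WT brain 3, in which telencephalon genes were lowest among the brains, stood apart in 3 exon indices. For Cadm1 probe set 5046090 it had -3.14, where the others had -3.48 to -3.47. For Nlgn2 probe set 4482033 it had -0.94, where the others had -1.25 to -1.23. For Nlgn3 probe set 5291033 it had -0.16, where the others were at 0 because the probe set was the median of its gene. WT spinal cord 4 had an exon index of -1.44 for Nrxn3 probe set 5054059, where the others had -2.03 to -2.02. The part of tissue makeup in these values was not tested.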

How the results depend on the processing

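With the replicate number as a block, 0 of 7 gene levels in brain and 1 of 7 in spinal cord (Cadm2) were called. That 1 was also called with an offset of 64, with quantile normalization and in 2 of the leave-one-out fits, whose range was 0 to 1. Exon calls between genotypes were 3 to 5 in brain in every alternative. In spinal cord they were 0 without the 4 muscle-rich arrays, 2 with the 8 arrays of the tissue alone and 3 to 6 with 1 array left out, against 4. Between tissues, without the muscle-rich arrays, 2 gene levels (Cadm1 and, newly called, Cadm2) against 4 and 20 exon indices against 32 were called; the 8 WT arrays alone also gave 20, and with 1 array left out the counts were 3 to 5 and 23 to 37. The highest counts in any alternative were 6 and 45. The block ended the call of Nrxn3 probe set 5508072 in both tissues (adjusted p of 0.128 and 0.0638).

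Small gene-level differences that were not called turned sign. In brain, Nlgn1 (0.01) was -0.0558 with a floor at the 75th percentile, -0.15 with means over probe sets, -0.0034 with quantile normalization and -0.12 with a sex term (-0.0983 to 0.0747 with 1 array left out). Nlgn2 (-0.05) was 0.0674 with the higher floor and 0.0246 with means (-0.0887 to 0.0044). Cadm3 (0.04) was -0.0729 and -0.108 under these (-0.0087 to 0.11), and Nlgn3 (-0.02) was 0.0186 without both brains numbered 3 (-0.0586 to 0.0415). In spinal cord, Nlgn1 (0.02) was -0.15 with the higher floor, -0.10 with means and -0.0492 with a sex term (-0.17 to 0.101). Cadm1 (-0.03) was 0.0536 with no floor, 0.00496 with quantile normalization and 0.0898 without the muscle-rich arrays (-0.0868 to 0.00475), and Cadm3 (-0.04) was 0.0800 without them (-0.117 to 0.0537). Between tissues, quantile normalization gave 0.122 for Nlgn3, 0.0206 for Cadm2 and 0.00909 for Cadm3, and means over probe sets gave 0.00967 for Cadm2. Of the single genes and probe sets under all alternatives, 1257 values kept direction and side of the threshold, 66 lost a call, 12 gained one and 31 turned sign. Over all genes, 820 were called in spinal cord, against 1620 with quantile normalization, 100 without the muscle-rich arrays and 420 to 1231 with 1 array left out. The causes were not tested. Signal near the floor limits the dim probe sets, and leaving out muscle-rich arrays leaves 2 per spinal cord group.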
